A study of Mus musculus with 20 samples.

Results

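The apolipoproteins are the protein components of blood lipoproteins, and the 10 described here are Apob, Apoa1, Apoa2, Apoa4, Apoa5, Apoc1, Apoc2, Apoc3, Apoe and Apom. They were taken as the probes for endogenous transcripts whose array annotation carries one of these gene symbols. That gave 16 probes of the 41174 on the array, and the 10 genes stand among 14470 measured genes with a symbol. The tissue was liver, collected at 6 weeks of age from male mice of the inbred strain C57BL/6J. All of them were weaned onto a high-fat diet, with fat as 60% of calories, so no lean-diet group is set against them. In the labels 10 livers are responders, from mice that were susceptible to obesity on this diet, and 10 are non-responders, from mice that resisted it. Susceptibility was a trait of mice of the same strain and diet, with no transgene and no added agent named. No label identifies the animals, so p-values refer only to the spread among these samples.

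Apolipoproteins hold the lipid particles together, and many of them also act as switches for the enzymes and receptors that the particles meet in the circulation. The liver secretes most of them, with triglyceride on apoB particles or with cholesterol and phospholipid on high-density particles. Smaller, exchangeable members move between particles and either help or hinder lipoprotein lipase, the enzyme that releases fatty acids from triglyceride in the capillaries. Others are ligands through which the liver takes remnant particles back up.

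Each liver was hybridised to 1 single-colour Agilent array, on which 55.8% to 71.2% of spots were well above background and 0 were saturated. The 20 arrays were scanned on different days in 2 sets, here called slide series. The second held 6 responders and 4 non-responders, and the first 4 responders and 6 non-responders. The 75th percentile of processed signal, by which each array was scaled, was 413 to 657 intensity units in the second series and 280.1 to 417 in the first. The 8 hepatocyte markers (Alb, Ttr and 6 others) had a summed level of 11.66 to 12.34 in responder livers and 11.55 to 12.37 in non-responder livers on the log2 scale used below. The 12 markers of exocrine pancreas, a tissue that lies beside the liver, had a summed level of 1.99 to 9.1 in responder livers and 1.82 to 9.08 in non-responder livers. The 6 measured adipocyte markers summed to 2.10 to 3.86 in responder livers and 2.65 to 4.93 in non-responder livers, and Lep and Adrb3 did not pass the background filter. Of 6 markers of small intestine, the other main source of apolipoproteins, Cdx2, Lct and Sis did not pass the filter, while Fabp2 (mean level 5.93 in responder and 5.99 in non-responder livers), Alpi (-1.88 and -1.97) and Vil1 (-4.10 and -4.69) did. The intestinal sum was 5.69 to 6.26 in responder livers and 5.67 to 6.32 in non-responder livers. The part of these other tissues in the values below was not tested. In whole liver, fewer cells of a type and less RNA per cell cannot be told apart.

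Levels are log2 of the processed signal minus the array's 75th percentile, so a level of 0 equals that percentile and each unit is a doubling. Differences are responder minus non-responder from a linear model in limma with the slide series as a term, with Benjamini-Hochberg adjustment over 17197 rows, and a call needs an adjusted p under 0.05.

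All 16 apolipoprotein probes were well above background on all 20 arrays. Each lay in the top 10% of 41122 to 41173 ranked probes on every array, and 10 of them lay in the top 1%. A probe's rank also reflects how well that probe binds, so it places the probe on the array and is not a transcript level. Apoc1's probe had a median rank of 1 in responder livers, with 2 as the lowest place. In non-responder livers its median rank was 1.5 and its lowest place 4. Apoe's probe had a median rank of 9 in both groups, between 7 and 11 in responder livers and between 8 and 15 in non-responder livers. Both probes were thus among the few brightest of the array in every liver. The dimmest was that of Apoa4, with a median rank of 2338 in responder livers and 2097 in non-responder livers.

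**Figure D1:**
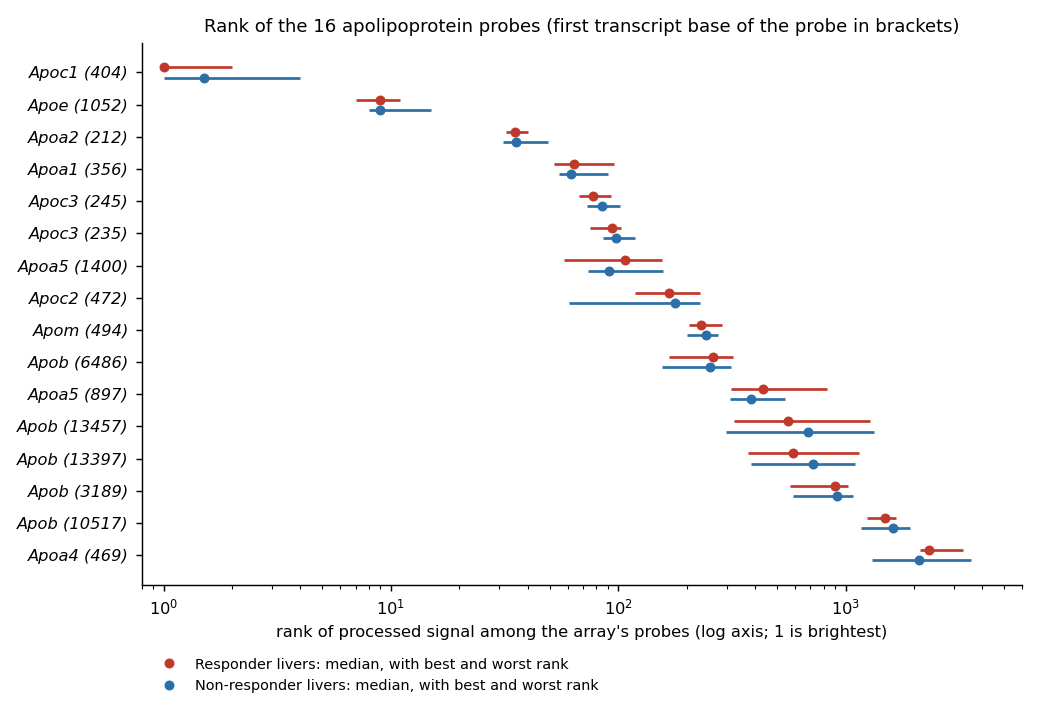
Rank of processed signal on the array (log axis, 1 is brightest) for the 16 apolipoprotein probes, named by gene and first transcript base of the probe; points are medians over 10 livers and lines run from the best to the worst rank. The responder and non-responder lines overlap for every probe, with Apoc1 and Apoe at the bright end and Apoa4 at the dim end.

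No difference between responder and non-responder livers was detected for any apolipoprotein. Of the 10 members 0 passed the adjusted threshold in limma and 0 had an unadjusted p under 0.05. Over all rows 0% were called and 7.98% had an unadjusted p under 0.05, 730 rows higher and 642 lower in responders. The members' adjusted p-values lay between 0.700 and 0.990, and the smallest over all rows was 0.273. The group ranges overlapped for all 10 genes, 6 of which had a positive and 4 a negative difference. The members' median difference was 0.022, against -0.0031 over all rows, and their median absolute difference 0.071, against 0.087.

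The members also varied little between livers of a group. Their residual standard deviation (SD) after group and slide series had a median of 0.15, against 0.23 over all rows. Most of those rows are dimmer: the mean level stood at percentile 88.9 for Apoa4 and at 98.7 or above for the other members. The spread of equally bright genes was not compared, so low spread is not shown to be particular to the members. Apom, Apoe and Apoc3 were among the steadiest genes measured, at percentiles 3.46, 10.1 and 12.1 of residual SD. Apoa5 stood at percentile 69.7 and Apoa4 at 85.3, so both were more variable than most genes.

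**Figure D2:**
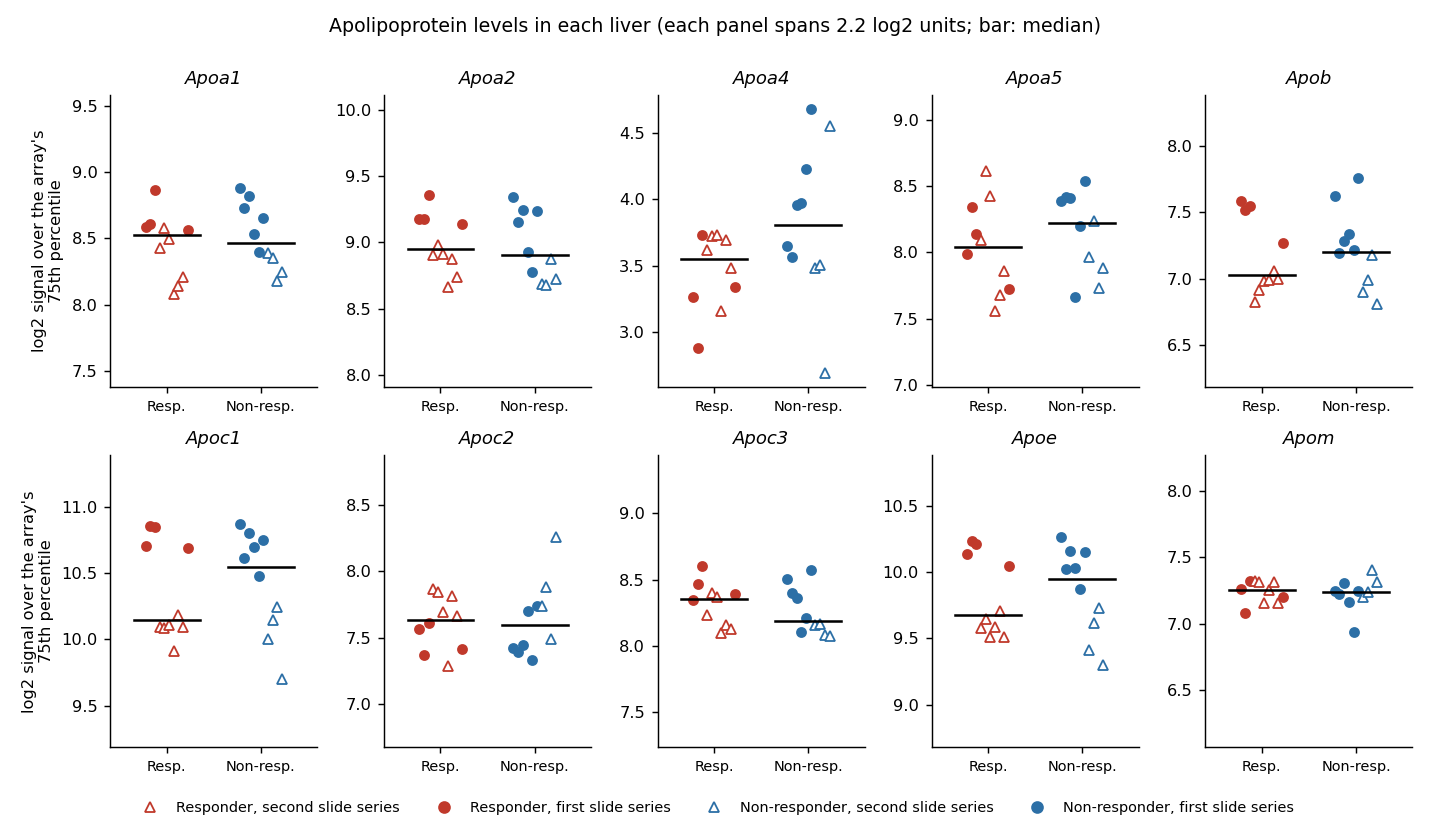
Level of each apolipoprotein in each liver, as log2 signal over the array's 75th percentile, with responder livers left and non-responder livers right in each panel; open triangles are the second and filled circles the first slide series, and bars are medians. The groups overlap in all 10 panels. For Apoc1 and Apoe, and narrowly for Apob, the 2 slide series stand apart in both groups.

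Apob encodes the structural protein around which very-low-density lipoproteins and chylomicrons are built. Its brightest probe had a lowest, median and highest level of 6.83, 7.03 and 7.58 in responder livers, against 6.81, 7.20 and 7.76 in non-responder livers. The ranges nearly coincided. The difference was 0.035 (SE 0.076, 95% interval -0.12 to 0.19, limma adjusted p = 0.916).

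Among the proteins of high-density lipoprotein, Apoa1 encodes the main one, which activates the cholesterol-esterifying enzyme LCAT. Its level was 8.08, 8.53 and 8.86 (lowest, median and highest) in responder livers, against 8.18, 8.47 and 8.88 in non-responder livers. The difference was 0.0080 (SE 0.077, 95% interval -0.15 to 0.17, limma adjusted p = 0.982), with 4 of 10 responders higher than the mean non-responder of the same slide series. The ranges of Apoa1 nearly coincided too. Apoa2, the next most abundant high-density protein, had 8.66, 8.95 and 9.36 in responder livers, against 8.68, 8.90 and 9.34 in non-responder livers. Its difference was 0.10 (SE 0.070, 95% interval -0.045 to 0.25, limma adjusted p = 0.739), and 8 of 10 responders were higher than the mean non-responder of the same series. Apom, which carries the signalling lipid sphingosine-1-phosphate on high-density particles, was the steadiest member. It had 7.08, 7.26 and 7.32 in responder livers, against 6.94, 7.24 and 7.40 in non-responder livers. Its difference was -0.0036 (SE 0.054, limma adjusted p = 0.990), and the 95% interval of -0.12 to 0.11 bounds a change in either direction at 1.08-fold with this background correction. With normexp correction Apom was -0.39 (SE 0.29), which leaves a far wider range. That correction lowered the differences of all 10 members by a similar amount, Apoa1 from 0.0080 to -0.39 among them. The move is thus shared by the members and not one of Apom alone, and its cause was not tested.

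The exchangeable members that act on triglyceride clearance showed small differences of both signs. Apoc2 encodes the cofactor that lipoprotein lipase needs. It had 7.29, 7.64 and 7.87 in responder livers, against 7.33, 7.60 and 8.26 in non-responder livers. Its difference was -0.082 (SE 0.095, 95% interval -0.28 to 0.12, limma adjusted p = 0.836). Apoa5 encodes a scarce plasma protein that promotes lipolysis and lowers plasma triglyceride. It had 7.56, 8.04 and 8.61 in responder livers, against 7.66, 8.22 and 8.54 in non-responder livers. Its difference was -0.068 (SE 0.14, 95% interval -0.37 to 0.23, limma adjusted p = 0.914), and its other probe gave -0.14 (SE 0.17). For Apoa5 the groups overlapped over most of the range, while for Apoc2 the non-responder liver numbered 10 lay above all others, and without it the Apoc2 difference was -0.013. Without the responder numbered 10 that of Apoa5 was -0.0051. Apoc3 encodes an inhibitor of lipoprotein lipase and of remnant uptake. It had 8.10, 8.36 and 8.60 in responder livers, against 8.07, 8.19 and 8.57 in non-responder livers. Its difference was 0.10 (SE 0.063, 95% interval -0.029 to 0.24, limma adjusted p = 0.704), with 8 of 10 responders higher by the same count. A further Apoc3 probe, which overlaps the one used, gave 0.081 (SE 0.067).

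Apoc1 encodes a small protein that hinders remnant uptake and several plasma enzymes. It had 9.91, 10.15 and 10.85 in responder livers, against 9.70, 10.54 and 10.87 in non-responder livers. Its modelled difference was 0.064 (SE 0.068, 95% interval -0.077 to 0.21, limma adjusted p = 0.822). The median was nevertheless lower in responders, of which 6 belonged to the second slide series, where Apoc1 was lower. Apoe encodes the ligand by which the LDL receptor and LRP1 bind remnants. It had 9.51, 9.67 and 10.23 in responder livers, against 9.30, 9.95 and 10.26 in non-responder livers. Its difference was 0.075 (SE 0.061, 95% interval -0.054 to 0.20, limma adjusted p = 0.776). Within the second and the first slide series, Apoe differed by 0.076 and 0.074.

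Apoa4 had the widest difference and the widest spread. It encodes a protein of chylomicrons and high-density particles that the intestine secretes and that mouse liver also makes. It had 2.88, 3.55 and 3.73 in responder livers, against 2.69, 3.80 and 4.68 in non-responder livers, with an SD of 0.29 in responders and 0.58 in non-responders. Above every responder lay 5 non-responder livers, at 3.96 to 4.68, while the lowest liver of all was also a non-responder. The difference was -0.35 (SE 0.21, 95% interval -0.78 to 0.081, limma adjusted p = 0.700), a fold of 0.786 with an interval from 0.584 to 1.06. A change of up to 1.71-fold in Apoa4 was therefore within what 20 arrays allow with this correction, and normexp gave -0.74 (SE 0.37, limma adjusted p = 0.587). Normexp lowered every other member by a similar amount, so that move is not particular to Apoa4.

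The Apoa4 estimate was near 0 in one slide series and negative in the other, and the test of that change did not pass the threshold. In the second, the 6 responders had 3.16, 3.65 and 3.73 (lowest, median and highest) and the 4 non-responders 2.69, 3.50 and 4.55, a difference of 0.0100 (SE 0.29). In the first, the 4 responders had 2.88, 3.30 and 3.73 and the 6 non-responders 3.56, 3.97 and 4.68, a difference of -0.71 (SE 0.23). The groups overlapped in both series. The test of the change between series gave 0.72 (SE 0.39, unadjusted p = 0.0805, limma adjusted p = 0.558). For this interaction 0 of 10 members were called, as were 0% of all rows. Apoa5, which lies next to Apoa4 on the chromosome, had 0.086 and -0.22 in the second and first series.

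**Figure D3:**
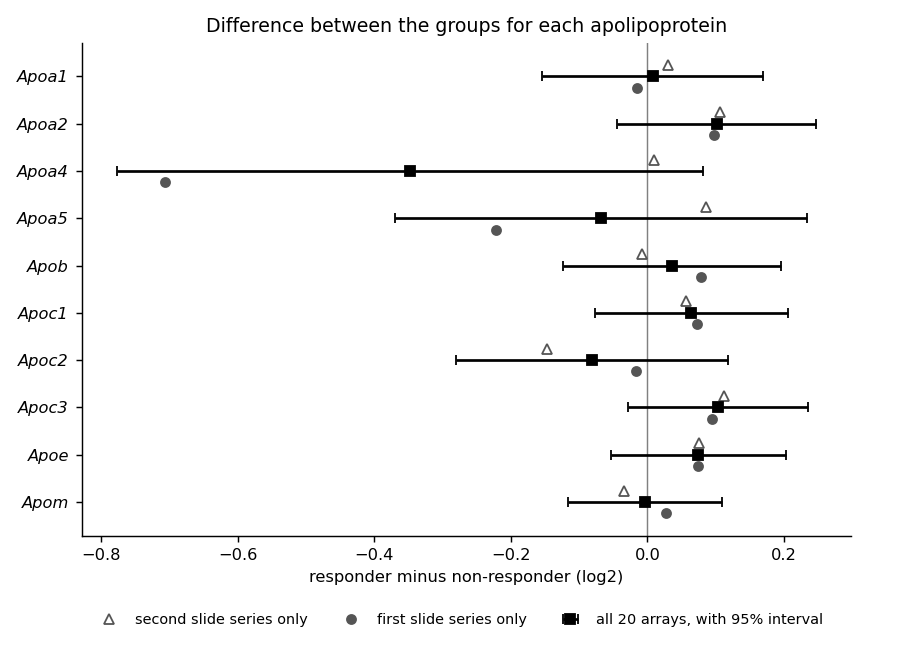
Responder minus non-responder difference (log2) for each apolipoprotein; squares with bars are the limma estimate over 20 arrays with its 95% interval, open triangles the second and filled circles the first slide series alone. Every interval spans 0, and the 2 series lie farthest apart for Apoa4, at 0.0100 and -0.71.

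With this scaling, most members differed more between the slide series than between the groups, Apoa4 being an exception with -0.095 between the series. Relative to the first series, Apoc1 was lower by 0.69 in the second (difference -0.69, SE 0.068), and Apoe had -0.57 (SE 0.061), Apob -0.47 (SE 0.076), Apoa2 -0.37 (SE 0.070), Apoa1 -0.36 (SE 0.077) and Apoc3 -0.23 (SE 0.063). These 6 were called lower in the second series by limma, beside 12.7% of all rows. Apoc2 alone was called higher, by 0.27 (SE 0.095), beside 17.6% of all rows, and 30.3% of rows were called in either direction. The 6 include the brightest probes of the family. Of the 100 brightest genes, 6 of them members, 92 had a negative series difference, with a median of -0.28 against 0.018 over all rows.

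The unscaled signal of these probes was compared with the percentile. The median 75th percentile was 593 intensity units in the second series and 328 in the first, a ratio of 1.81. The median mean signal of Apoc1's probe was 518664 units in the second series and 490587 in the first, a ratio of 1.06, and its highest value reached 78.3% of the scanner's saturation value. For Apoe the ratio was 1.13, with a highest value of 72.0% of saturation. Apom's signal had a ratio of 1.86 and Apoc2's 2.02, close to or above that of the percentile. The signal of the brightest members thus differed less between the series than the percentile by which it was divided. Why it did so was not tested. Quantile normalization, chosen as a check of this after seeing the data, left 1 member lower and 2 higher in the second series, with 0.0075 for Apoc1 and -0.063 for Apoe. That method gives each rank the same value on every array, so probes that keep nearly the same top rank are held near a constant by construction, and these 2 values are no test of a series difference.

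Apob was the member with the most probes, and they differed between the slide series in opposite directions. Its 5 probes are shown because the value of the gene depends on which of them is read. Each has 60 bases of the transcript, written 5′ to 3′ with their mm9 positions on the plus strand from the array annotation, and none of the letters is marked.
Apob probe from transcript base 3189, chr12:8005482-8007691: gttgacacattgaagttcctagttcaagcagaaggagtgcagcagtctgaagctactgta
Apob probe from transcript base 6486, chr12:8014710-8014769: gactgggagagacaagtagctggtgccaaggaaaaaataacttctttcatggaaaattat
Apob probe from transcript base 10517, chr12:8018741-8018800: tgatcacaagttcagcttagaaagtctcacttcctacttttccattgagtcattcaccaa
Apob probe from transcript base 13397, chr12:8023134-8023193: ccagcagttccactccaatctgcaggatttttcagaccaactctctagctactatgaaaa
Apob probe from transcript base 13457, chr12:8023194-8023253: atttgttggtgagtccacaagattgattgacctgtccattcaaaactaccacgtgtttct
The genomic span of the first is longer than the probe, so it crosses a splice junction. The last 2 adjoin each other near the 3′ end. Their GC content was between 38.3% and 45%.

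Between the groups, the 5 Apob probes in this order differed by 0.19 (SE 0.10), 0.035 (SE 0.077), 0.13 (SE 0.10), 0.039 (SE 0.17) and -0.042 (SE 0.20), with 0 called. Between the slide series they ran from lower to higher along the transcript. The second minus first differences were -0.57, -0.47, -0.17, 0.74 and 1.07 (SE 0.10, 0.077, 0.10, 0.17 and 0.20), and all but the third were called by limma. The probe from base 13457 had 5.82, 6.69 and 6.98 (lowest, median and highest) in the second series and 4.60, 5.59 and 5.98 in the first. The probe from base 3189 went the other way, with 4.94, 5.16 and 5.32 in the second and 5.21, 5.69 and 6.08 in the first.

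The mean of the last 2 probes minus the mean of the first 2, which no constant applied to a whole array can change, separated the series completely. It was -0.25, 0.43 and 0.74 in the 10 arrays of the second series and -1.71, -0.95 and -0.50 in the 10 of the first. The series difference was 1.43 (SE 0.17). The responder difference with series as a term was -0.12 (SE 0.17). Within the second series the median contrast was 0.43 in responder livers and 0.46 in non-responder livers, and within the first -1.24 in responder livers and -0.89 in non-responder livers. After group and series were removed, the levels of the last 2 probes had r = 0.97 over the 20 arrays and those of the first 2 r = 0.90. The middle probe had r = 0.65 and 0.51 with the first 2 and -0.19 and -0.26 with the last 2, while the first 2 had r between 0.37 and 0.46 with the last 2. These values come from 5 probes of the same arrays and are a description.

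**Figure D4:**
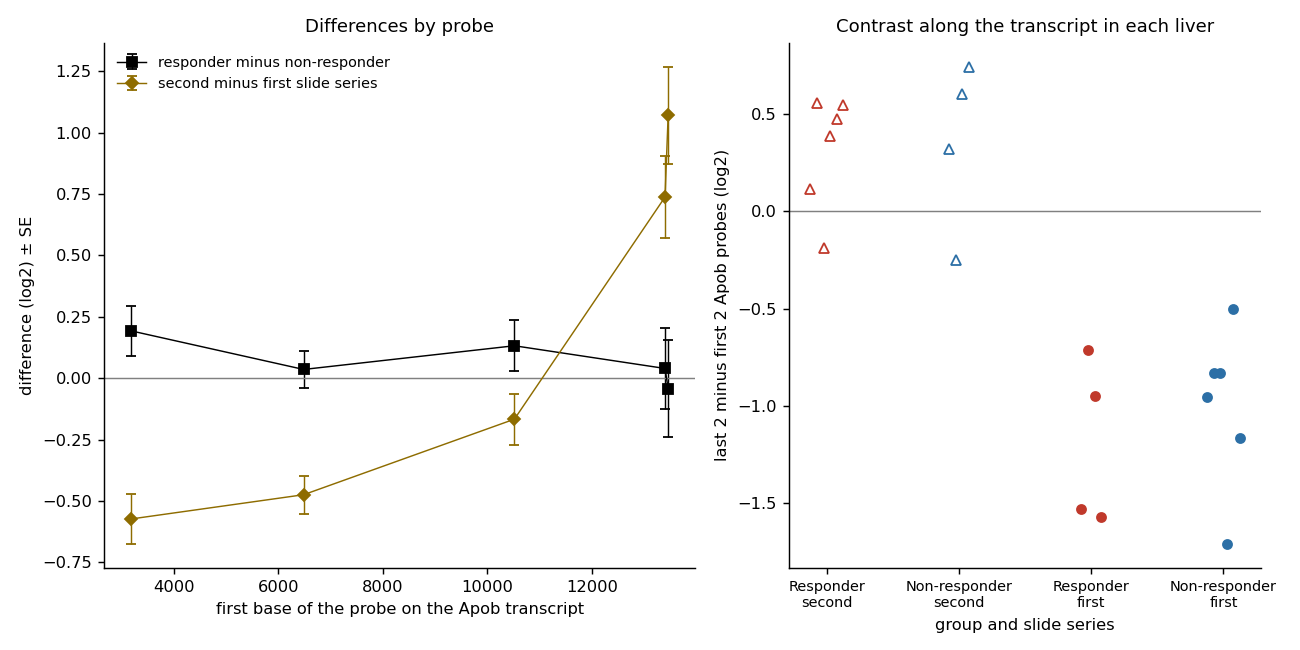
Left, difference (log2, ± SE) of each of the 5 Apob probes against the first base of the probe on the transcript, for responder minus non-responder and for the second minus the first slide series. Right, mean of the last 2 minus mean of the first 2 Apob probes in each liver; all arrays of the second series lie above all arrays of the first, and responders and non-responders overlap within each series.

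The authors' deposited value table holds 3 of the 5 Apob probes, all with the same value on each array. Over the 20 arrays that value had r = 0.99 and 0.98 with the levels of the last 2 probes, and r = -0.51 with the probe used here, as a description that includes the slide series. In the authors' deposited table Apob was 0.79 higher in the second series, against -0.47 for the brightest probe of the scanner files. The table also gave Apoc1 the same value, 618110 intensity units, on 13 of 20 arrays.

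Apoa1 and Apoe were printed on 10 spots each, which gives the error of a spot within an array. For Apoa1 the coefficient of variation over spots had a median of 4.12% after the scanner software's processing and 14.6% before it, and it was smaller after processing on all arrays. For Apoe the order was turned, with 12.6% after and 2.64% before, and larger after processing on 20 of 20 arrays. After processing, the spots of Apoe were thus more uneven than before it and those of Apoa1 more even. Averaging 10 spots of fixed position leaves this out of the group differences as far as the pattern repeats between arrays, which was not tested.

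Some pairs of members varied together between livers. Over the 20 arrays, after group and slide series were removed, 13 of 45 pairs of members had a Pearson correlation past an adjusted p of 0.05 by permutation of the arrays (100000 resamples, two-sided, Benjamini-Hochberg over 45 pairs), and all 13 were positive. The median r over the 45 pairs was 0.30, and the smallest p that these permutations give is 1e-05. With quantile normalization 3 pairs passed, and all 3 were among the 13. The share of such pairs among other genes was not computed. Among 13689 named genes ranked by r, Apoc1 stood at position 2 for Apoe, but Apoa1 stood at position 199 for Apoa5 (r = 0.74). An r of this size is therefore not particular to the family.

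Those 3 pairs are formed by members on chromosomes 9 and 7. In the RefSeq gene table Apoa1, Apoc3, Apoa4 and Apoa5 follow each other on chromosome 9, and Apoc2, Apoc4, Apoc1 and Apoe lie together on chromosome 7. Apoa5 and Apoc3 had r = 0.81 and rho = 0.80 (permutation p = 3e-05 for each, adjusted p = 0.00045), r = 0.74 with quantile normalization, and r = 0.93 and 0.76 within the second and first series. The 2 genes have opposite roles in lipolysis. Apoa1 and Apoc3 had r = 0.79 and rho = 0.83 (permutation p = 4e-05 and 3e-05, adjusted p = 0.00045 for each), r = 0.69 with quantile normalization, and r = 0.95 and 0.72 within the second and first series. Leaving out the 2 arrays farthest from the median gave r = 0.72 and 0.73 for these pairs, and the authors' deposited table gave 0.55 and 0.54. Apoa1 and Apoa5 had r = 0.74 (adjusted permutation p = 0.0015), with 0.94 and 0.49 within the second and first series and 0.54 with quantile normalization (adjusted p = 0.13). An r of this size was not limited to neighbouring genes. Apoa2, on chromosome 1, had r = 0.770 with Apoc3, 0.749 with Apoa1 and 0.736 with Apom, all among the 13 pairs. With quantile normalization these were 0.375, 0.374 and 0.443, and none of them passed. Apoa4, which lies between Apoc3 and Apoa5, had r = 0.19 with Apoc3 and 0.25 with Apoa5.

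Apoa4 instead varied with Apoc2, a gene of chromosome 7. The pair had r = 0.66 and rho = 0.61 (permutation p = 0.00177 and 0.00539, adjusted p = 0.00873 and 0.0243), and r = 0.69 with quantile normalization. Within the second and first series r was 0.78 and 0.43, and without the 2 farthest arrays it was 0.56.

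The pair with the highest r was Apoc1 and Apoe. It had r = 0.87 and rho = 0.86 (permutation p = 1e-05 for each, adjusted p = 0.00045), and r = 0.47 with quantile normalization (adjusted p = 0.226). Apob had r = 0.68 with Apoe and 0.60 with Apoc1, which turned to -0.11 and -0.28 with quantile normalization. Since quantile normalization holds probes of near-constant top rank almost fixed, its values for Apoc1 and Apoe do not test whether they vary together. Both Apoc1 and Apoe were low where the array's own 75th percentile was high. With group and series removed from both, r with log2 of the percentile was -0.70 for Apoc1, -0.78 for Apoe and -0.67 for Apob (permutation p = 0.00068, 6e-05 and 0.0012, adjusted over the 10 members 0.0034, 0.0006 and 0.004). Spearman's rho was -0.68, -0.77 and -0.75 (permutation p = 0.00144, 0.00015 and 0.00015, adjusted p = 0.0048, 0.00075 and 0.00075). Without the 2 arrays farthest in the percentile, r was -0.73, -0.80 and -0.58. The percentile is itself subtracted in these levels, so a probe whose signal moves less than the percentile gives a negative r by construction. The permutation p-values, here and for the members below, do not allow for this, and these r are a description. With quantile normalization r was 0.44 for Apoc1, 0.32 for Apoe and -0.44 for Apob. With the percentile scaling Apom had r = -0.55 and Apoa2 r = -0.53 (permutation adjusted p = 0.032 and 0.034), and Apoa4 had r = 0.51 (adjusted p = 0.034), which was 0.23 without the 2 farthest arrays. For Apoa1, Apoc3 and Apoa5 r was -0.22, -0.20 and -0.045, and without the 2 farthest arrays -0.51, -0.43 and -0.30.

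**Figure D5:**
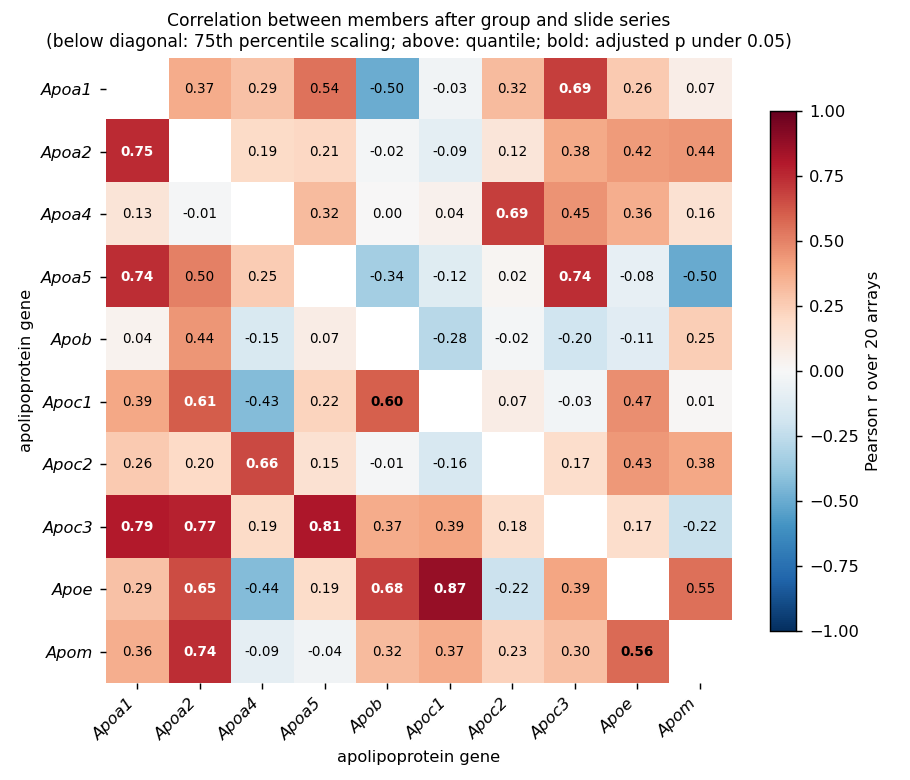
Pearson r between apolipoproteins over 20 arrays after group and slide series were removed, with the 75th percentile scaling below the diagonal and quantile normalization above it; bold marks an adjusted permutation p under 0.05. The 13 bold cells below the diagonal come down to 3 above it, Apoa1 with Apoc3, Apoa5 with Apoc3 and Apoa4 with Apoc2.

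The sequence just before the transcription start is shown for the members of these 3 pairs that the RefSeq promoter table (build GRCm38.p6) holds. Of the 10 members 8 had an entry, with 12 windows in all, and Apoc1 and Apoc3 were not used here. Each window has the 200 bases before the annotated start, 5′ to 3′ on the gene's strand. Capitals mark any of 4 motifs searched on both strands, TATAAA (the TATA box), TGACG (core letters bound by CREB-type factors), AGGTCA (core letters bound by nuclear receptors) and CAAAGTCCA (letters of an HNF4 site). Letters of different motifs may share bases, which none of the windows below has.
Apoa4, chr9:46240644-46240843, plus strand: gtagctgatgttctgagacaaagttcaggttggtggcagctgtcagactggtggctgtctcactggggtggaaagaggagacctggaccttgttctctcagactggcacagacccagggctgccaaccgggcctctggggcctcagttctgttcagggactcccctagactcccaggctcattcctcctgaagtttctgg
Apoc2, chr7:19677942-19678141, minus strand: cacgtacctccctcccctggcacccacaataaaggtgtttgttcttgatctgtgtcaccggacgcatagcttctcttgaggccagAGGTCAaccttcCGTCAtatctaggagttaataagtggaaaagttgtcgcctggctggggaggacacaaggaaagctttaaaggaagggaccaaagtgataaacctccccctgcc
Apoa5, chr9:46268408-46268607, plus strand: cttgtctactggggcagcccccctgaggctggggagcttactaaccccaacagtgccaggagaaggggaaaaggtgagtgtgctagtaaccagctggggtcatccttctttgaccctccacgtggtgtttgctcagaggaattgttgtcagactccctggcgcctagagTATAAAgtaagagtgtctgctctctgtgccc
Apoa1, chr9:46228430-46228629, plus strand: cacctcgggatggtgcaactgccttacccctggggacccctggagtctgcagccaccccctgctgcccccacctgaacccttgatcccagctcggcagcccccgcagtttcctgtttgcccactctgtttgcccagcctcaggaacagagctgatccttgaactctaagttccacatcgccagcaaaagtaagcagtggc

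Apoa5 had TATAAA at position -31 from its start, and Apoc2 had AGGTCA at -115 and TGACG, on the opposite strand, at -103, counted to the leftmost base of the match. The windows of Apoa4 and Apoa1 held none of the 4. A further Apoa5 window, for a later start, overlaps the one shown and holds the same TATAAA, at -56. With that site counted in both, TATAAA was in 4 of the 12 windows (Apoa5, Apob and Apoe) and in 9.96% of all 32851 windows of the table. TGACG was in 2 (Apoa2 and Apoc2) against 15.7% of all windows, AGGTCA in 1 (Apoc2) against 11.4%, and CAAAGTCCA in 0 against 0.317%. A match of letters is a description of the window only.

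The gene most like each member over the 20 arrays, by Pearson r of residuals after group and series among 13689 named genes, was in no case another member, and its r was over 0.8 for 9 of the 10. For Apoa5 it was Ctsf (r = 0.92), followed by Dgat1 (r = 0.92), which catalyses the last step of triglyceride synthesis, and Wbp2 (r = 0.91). For Apoe it was Mup3, a major urinary protein gene (r = 0.92), followed by Apoc1 (r = 0.87) and Serpina3m (r = 0.86). For Apoc1 it was Alb, the albumin gene (r = 0.90), followed by Ptprz1 (r = 0.88) and Mup3 (r = 0.88). These values are on the scaling on which Apoe and Apoc1 also followed the percentile. Apoa4 was most like Cdk4 (r = 0.85), Spata5 (r = 0.73) and Aven (r = 0.73), and Apoc2 most like Nelfe (r = 0.86), Nono (r = 0.80) and Cenpt (r = 0.79). Apoa1 was most like Atp6v1e1 (r = 0.90), Mylk (r = 0.86) and Zfp949 (r = 0.85), and Apoc3 most like Lrrc51 (r = 0.86), Sardh (r = 0.84) and Eif1 (r = 0.84). Apob was most like Gbf1 (r = 0.86), Septin10 (r = 0.83) and C4a (r = 0.83), Apoa2 most like Mug1, Naxe and Eef1d (r = 0.84, 0.84 and 0.83), and Apom most like Cyb561d2, B4galnt1 and Vtn (r = 0.79, 0.77 and 0.76). No p is given, since these are the highest of many correlations.

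The genes that load, edit, remodel and take up apolipoproteins also had 0 calls in limma. Of the 16 genes listed under lipoprotein assembly and secretion, 13 had a positive and 3 a negative difference, with a median of 0.056. Acat2 is counted among the 13 at 0.12 (SE 0.16), though no part of it in assembly is shown here. P4hb, the protein disulfide isomerase that is the smaller subunit of the microsomal transfer protein, differed by 0.17 (SE 0.070, unadjusted p = 0.0284), the only gene of that list with an unadjusted p under 0.05. Cideb, a lipid droplet protein needed to load apoB particles, differed by 0.18 (SE 0.090). Mttp, the larger subunit, which was chosen for mention after its value was seen, differed by 0.12 (SE 0.079). Of the 5 genes listed under apoB mRNA editing, the deamination that in mouse liver yields the short form apoB48, 2 were positive and 3 negative. Rbm47 and Apobec2 differed by 0.14 (SE 0.10) and -1.27 (SE 1.25), and the editing enzyme Apobec1, likewise added, by -0.018 (SE 0.085). The SD of Apobec2 was 3.58 in responder and 2.71 in non-responder livers, against 0.27 and 0.15 for Rbm47. No part of Apobec2 in this editing is shown here, so its value is not read as one of editing.

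Among 13 genes of lipases and lipoprotein remodelling, Lipc, hepatic lipase, differed by 0.30 (SE 0.073, unadjusted p = 0.00053, limma adjusted p = 0.490) and Lmf1, the maturation factor of lipases, by 0.19 (SE 0.052, unadjusted p = 0.0013, limma adjusted p = 0.490). For both, 9 of 10 responders were higher than the mean non-responder of the same series. Lipoprotein lipase itself, Lpl, differed by -0.62 (SE 0.28, unadjusted p = 0.0403), so the list had 2 genes higher and 1 lower at an unadjusted p under 0.05, and its median difference was 0.050. Of 14 measured receptors and cholesterol exporters, 6 were positive and 8 negative, and Lrp1, a receptor for remnant particles, differed by 0.13 (SE 0.067). Among 17 measured other apolipoproteins and lipoprotein-borne proteins, Clu and Apoc4 differed by 0.12 (SE 0.070) and 0.065 (SE 0.053), with 10 positive and 7 negative.

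Of the 28 measured transcriptional regulators, 16 were positive and 12 negative, 1 higher and 3 lower at an unadjusted p under 0.05. Onecut1, the liver factor HNF6, differed by 0.67 (SE 0.28), with 1.35 and -0.0050 within the second and first series, and Ppargc1b, a coactivator, by -0.42 (SE 0.18). Hnf4a and Creb3l3, which are known to act on several apolipoprotein promoters and were added after their values were seen, differed by -0.22 (SE 0.13) and 0.071 (SE 0.074), and Hnf4a had 0.13 and -0.56 within the second and first series. The 9 measured targets of CREBH, the product of Creb3l3, that lie outside the family were all negative with a median of -0.25, led by Cidec at -1.16 (SE 0.36) and Fads2 at -0.25 (SE 0.13). Within the second series 6 of the 9 were negative with a median of -0.053, and within the first 9 with a median of -0.44. Of the 20 PPARA targets 18 were negative with a median of -0.24, led by Cyp4a14 at -1.58 (SE 0.75) and Acot4 at -0.50 (SE 0.25). Within the second series 11 of the 20 were negative with a median of -0.0037, and within the first 19 with a median of -0.48. Cpt1a and Fgf21 are in both lists, and Creb3l3 itself is counted among the PPARA targets, so the 2 lists are not separate. Over all rows 48.9% were higher in responders. Of the 15 SREBP2 targets 12 were positive with a median of 0.20, led by Insig1 at 0.20 (SE 0.096) and Fdft1 at 0.30 (SE 0.18). Against these medians the apolipoproteins, at 0.022, lay near the -0.0031 of all rows. All 6 measured adipocyte markers were negative with a median of -1.37, 5 of them at an unadjusted p under 0.05. All 9 stellate cell and fibroblast markers were negative too, with a median of -0.24 and 4 at an unadjusted p under 0.05, led by the collagen gene Col1a1 at -0.56 (SE 0.17). Within the second series their median was -0.45, and within the first 0.013. Of 13 macrophage and Kupffer cell markers 10 were negative, with a median of -0.036. Within the second series all 13 were negative with a median of -0.15, and within the first 5 with a median of 0.049. Of the 12 exocrine pancreas markers 11 were negative, with a median of -0.91 and 0 at an unadjusted p under 0.05. Their spread was wide, as for Cela3b at -1.61 (SE 2.01). Between the slide series they differed by -4.67 (Cpb1) to -0.99 (Amy2a5), second minus first. The part of these cells and tissues in the values of the lists, Lpl and Cidec included, was not tested.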

How the data were processed

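The 20 liver RNA samples were measured on single-colour Agilent arrays, 1 per sample. Per the file headers, the deposited spot intensity was read by Agilent Feature Extraction 10.5.1.1, which subtracted background and detrended it within the array; per the submitters' processing notes the version was 9.1. The authors' deposited value table also holds intensity on a linear scale, and the steps that made it are not given in the sources used here. The values were not scaled between arrays in the scanner files.

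Processed intensity was scaled on the log2 scale to each array's 75th percentile over all non-control spots, outlier-flagged spots included. The flagged spots were left out of the levels, and the other spots of each probe were averaged. A probe was kept if it stood well above background on 5 or more arrays of either group (26156 probes), and a gene took its brightest probe, which gave 17197 rows. Slide series, read from scan day, holds both groups and was a term in the fit with limma 3.58.1 in R 4.3.3. The arrays lay on 13 slides, of which only 3 held both groups, so slide and group are largely confounded. With slide as a random block the correlation within slides was 0.037, and 0 members were called, as were 0 of all 17197 rows. The fit was tested on simulated data. The members and gene lists were chosen with earlier results of these data known. All 10 members are named, with the 2 genes of smallest unadjusted p of each pathway list and the 3 genes most like each member; a gene that this rule names among the receptors is not reported here. Probe positions are mm9 and promoter windows GRCm38.p6, and the RefSeq tables served otherwise for names and gene order. The number of arrays limits the precision. The alternatives tried were other background corrections, scalings, filters, variance models, slide or replicate blocks, each slide series alone and leaving out each array.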

Additional observations from a re-analysis of the deposited data

Results flagged for a closer look

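Of the 20 sets of 10 livers given by 10 members and 2 groups, 1 held a liver far from the others by Dixon's criterion, which chance alone meets in about 1 in 20 groups. Apom was at 6.94 in the non-responder liver numbered 5, the lowest of its group. Without that liver the Apom difference was -0.029, against -0.0036 with all 20 arrays.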

How the results depend on the processing

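The count of members called was 0 under every alternative run, the 20 fits that leave out 1 array included. Over all rows 0 were called under each of them too, so the members' count of 0 is not particular to them. The replicate block on the title's number also gave 0, with Apoa1 at -0.048; same-numbered livers correlated over 0.1 in 8 of 10 pairs (range -0.29 to 0.61) and 4 of 20 arrays correlated best with their own number (6 of 10 pairs and 6 of 20 arrays with the series removed), so not every pair passed and the samples are taken to share only a number. That block moved Apoa5 to -0.16. The interaction count was 0 under the 3 alternatives run, and its fit with no series term cannot be made. Signs of near-zero differences turned in places. With normexp, which raised the 75th percentile by over 10% on 5 arrays, 3 of them responders, Apoa1 was -0.39, Apoa2 -0.30, Apob -0.39, Apoc1 -0.30, Apoc3 -0.24 and Apoe -0.28. Every member was lower with normexp than without it, by a similar amount. Plain subtraction gave Apoa1 -0.011 and Apom 0.013, quantile normalization Apoa1 -0.019, the authors' deposited table Apoa1 -0.0013 and array weights Apoa1 -0.022. Without the series term Apoa1 was -0.063, Apob -0.060, Apoc1 -0.073, Apoe -0.039 and Apom 0.010. The first series alone gave Apoa1 -0.015 and Apom 0.027, and the second Apoa4 0.0100, Apoa5 0.086 and Apob -0.0079. Leaving out 1 array gave Apoa1 -0.022 to 0.030, Apom -0.029 to 0.017, Apoc2 -0.13 to -0.013, Apoc1 0.017 to 0.099 and Apoe 0.042 to 0.11 (the values nearest 0 without non-responder 10), Apoa5 -0.13 to -0.0051 (without responder 10), Apob 0.014 to 0.071 and Apoa4 -0.51 (without non-responder 9, its only unadjusted p under 0.05 among these) to -0.23 (without non-responder 10). Alternatives for the slide series and the Apob contrast were chosen after seeing the data. Members lower and higher in the second series numbered 6 and 1, against 1 and 2 with quantile normalization, 0 and 0 with normexp, 0 and 3 in the authors' deposited table, and 2 higher with plain subtraction. The Apob contrast between series stayed at 1.42 to 1.52. Pairs past the threshold numbered 13, against 3 with quantile normalization, where r was -0.11 for Apob and Apoe, -0.095 for Apoa2 and Apoc1 and -0.28 for Apob and Apoc1. The authors' deposited table gave -0.12, -0.085 and -0.33. In that table Apoc1 had the same value on 13 of 20 arrays, and Apob followed its last 2 probes and not the probe used here. Its values are therefore no test of these pairs. The causes were not tested.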
